A study of Schizosaccharomyces pombe with 21 samples.

Results

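Transcript counts of the uracil-regulated genes urg1, urg2 and urg3, of the uracil permease gene fur4 and of the pyrimidine synthesis genes ura1 to ura5 were followed in fission yeast (Schizosaccharomyces pombe) through phosphate starvation. The genes were chosen by name, 9 of the 6988 in the count table. All 21 libraries were of polyadenylated RNA from strain AGP72, which the labels describe as h- with no other allele. The phosphate-replete group (0 h) was in log phase in YES medium without drug. The starved groups were kept for 2, 4 or 8 h in ePMGT medium without phosphate, either without drug or with 100 µg/ml cycloheximide, an inhibitor of translation elongation. Each of the 7 groups had 3 libraries, called biological replicates in the labels, and totals of 22079413 to 33563867 counts. The drug groups and the starved groups are compared with the same 0 h libraries, which differed from them in medium as well as in phosphate, and the effects of these cannot be told apart. What either medium held in uracil is not given in the labels.

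Pyrimidine nucleotides are made from carbamoyl phosphate and aspartate, which are built into dihydroorotate and orotate and then into UMP, the parent of the other pyrimidine nucleotides. Cells can also take up uracil through a permease and convert it directly to UMP with a phosphoribosyltransferase. The urg genes were named for their rapid response to uracil in fission yeast, where the urg1 promoter serves as an inducible promoter. Their homologues in the yeast Lachancea kluyveri act in the breakdown of pyrimidines.

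Of the 9 genes, 8 had counts in every library and passed the filter on low counts, with 534 to 195429 counts per gene and library. The exception was ura4, the gene of orotidine 5'-phosphate decarboxylase, which makes UMP in the last step of the pathway and is widely used as a selectable marker in this yeast. It had 0 counts in each of the 21 libraries. By counting error alone, a count of 0 allows up to 3 counts per library, which is 0.0845 to 0.145 CPM (counts relative to library size, after scaling for composition). Of the 4 nearest tested genes, tam14 and pmp20 had at least 441 and 1149 counts in every library, and new25 and mug135-antisense-1 had at least 23 and 26. The reason for the empty row was not tested, and ura4 enters no comparison below.

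All 3 urg genes rose within 2 h of starvation and stayed high through 8 h. The level of urg1, annotated as a GTP cyclohydrolase II, was 52.4, 51.4 and 50.0 CPM in the 3 replete libraries. It was 5102, 4176 and 4795 CPM at 2 h, 5295, 5298 and 5150 CPM at 4 h, and 6860, 5979.6 and 6142 CPM at 8 h. The replete libraries lay far below every starved library. The log2 fold changes against 0 h were 6.52 ± 0.12 at 2 h, 6.68 ± 0.12 at 4 h and 6.95 ± 0.13 at 8 h (± SE, as for all log2 values below; edgeR quasi-likelihood test, adjusted p = 2.5e-20, 1.4e-21 and 2.8e-22), which at 8 h is 123-fold.

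The uracil phosphoribosyltransferase gene urg2 had 99.1, 86.7 and 94.1 CPM at 0 h, and 4488, 3672 and 4248 CPM at 2 h. It then kept to 4241, 4187 and 4165 CPM at 4 h and 4379.7, 4016 and 4233 CPM at 8 h. Its log2 fold changes against 0 h were 5.47 ± 0.12, 5.49 ± 0.12 and 5.49 ± 0.12. The third gene, urg3, encodes a protein of the DUF1688 family annotated as implicated in uracil or riboflavin metabolism. It went from 111, 109 and 110.5 CPM at 0 h to 1147, 979 and 1099 CPM at 2 h, 977, 983 and 970.5 CPM at 4 h, and 824, 790.2 and 811 CPM at 8 h. Its log2 fold changes were 3.29 ± 0.08, 3.15 ± 0.08 and 2.88 ± 0.08. None of the 3 genes changed by 2-fold between 2 and 4 h or between 4 and 8 h.

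Counts of the 3 urg genes together made up 0.0223% to 0.0244% of a replete library and 1.16% to 1.21% of a library at 8 h. At 2 h they were the only genes of the set that were called; a call needed 2-fold or more together with an adjusted p below 0.05. That is 3 of 8 higher and 0 lower, where 3.94% of the 6392 genes tested were called higher and 1.81% lower.

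**Figure D1:**
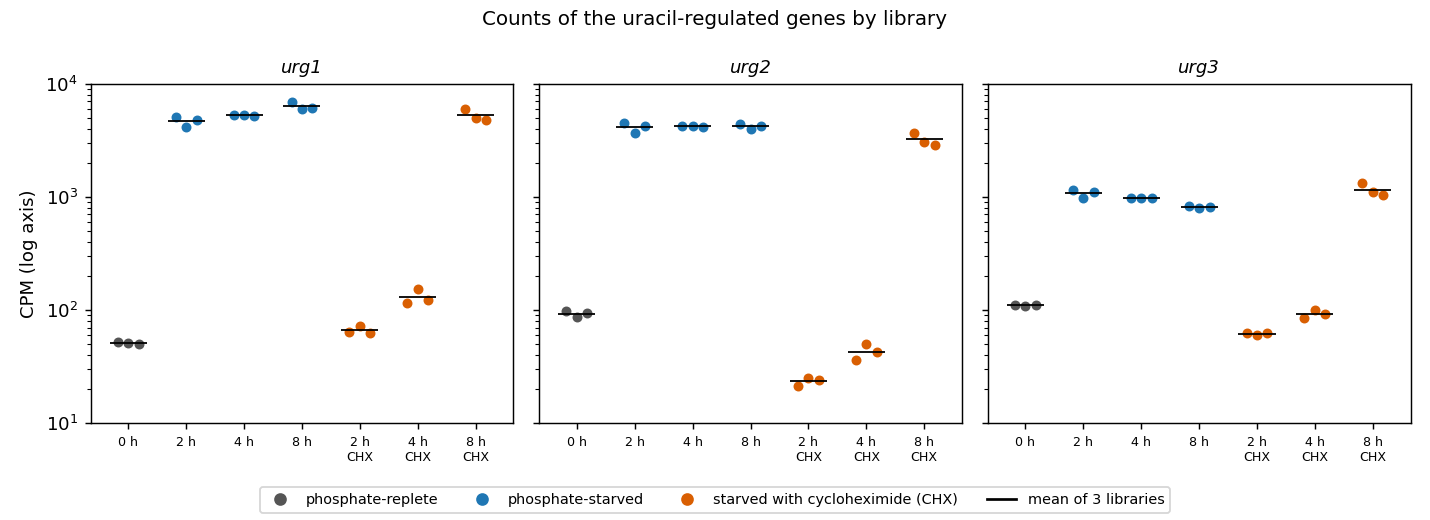
CPM of urg1, urg2 and urg3 (log axis) in each of the 21 libraries, with the mean of each group of 3 as a line. All 9 starved libraries without drug and the 3 libraries at 8 h with cycloheximide (CHX) lie far above the 0 h libraries, while those at 2 and 4 h with the drug lie within a few-fold of them.

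With cycloheximide the urg genes had low counts at 2 and 4 h of starvation and high counts at 8 h. The level of urg1 was 63.8, 72.8 and 62.6 CPM at 2 h with the drug and 115, 154 and 124 CPM at 4 h. At 8 h with the drug it was 6016, 5014 and 4732 CPM. The last range meets that of the starved libraries without drug, whereas the libraries at 2 and 4 h with drug are all far below it. Against 0 h the log2 fold changes were 0.37 ± 0.11 at 2 h, which is below 2-fold, then 1.35 ± 0.11 at 4 h and 6.68 ± 0.12 at 8 h (edgeR quasi-likelihood test, adjusted p = 0.0027, 5.9e-11 and 2.4e-21).

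The same libraries gave urg2 levels of 21.3, 25.0 and 24.0 CPM at 2 h, 36.1, 50.1 and 42.5 CPM at 4 h, and 3694, 3061 and 2900.2 CPM at 8 h. At both early times every library was below the lowest replete library. Thus urg2 fell against 0 h by 2.00 ± 0.11 at 2 h and by 1.12 ± 0.11 at 4 h on the log2 scale, and rose by 5.11 ± 0.11 at 8 h. For urg3 the drug libraries had 62.8, 60.1 and 62.4 CPM at 2 h, 85.7, 100.2 and 92.9 CPM at 4 h, and 1323, 1102 and 1032 CPM at 8 h. Its values against 0 h were -0.83 ± 0.08 and -0.24 ± 0.07 at 2 and 4 h, neither called, and it rose by 3.39 ± 0.08 at 8 h. The 3 genes together took 0.0143% to 0.0154% of counts at 2 h with drug, 0.0232% to 0.0290% at 4 h and 0.921% to 1.18% at 8 h.

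At 2 h the drug libraries were below the libraries without drug by 177-fold for urg2, 70.6-fold for urg1 and 17.4-fold for urg3. On the log2 scale these differences were -7.47 ± 0.13, -6.14 ± 0.12 and -4.12 ± 0.08 (edgeR quasi-likelihood test, adjusted p = 4.7e-22, 3.4e-21 and 2.6e-21). At 4 h they were -6.61 ± 0.12, -5.33 ± 0.12 and -3.39 ± 0.08. At 8 h none of the 3 was called, with values of -0.39 ± 0.09 for urg2, -0.27 ± 0.10 for urg1 and 0.51 ± 0.07 for urg3, and the libraries with and without drug overlapped for urg1 but not for urg2 or urg3. The test of the difference itself, the drug effect at 8 h minus that at 2 h, gave, with a positive sign where 8 h is higher, 7.08 ± 0.15 for urg2, 5.87 ± 0.15 for urg1 and 4.63 ± 0.10 for urg3.

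Between 4 and 8 h with the drug urg2 rose by 6.23 ± 0.12 on the log2 scale, urg1 by 5.33 ± 0.12 and urg3 by 3.63 ± 0.08, that is 74.9-fold, 40.1-fold and 12.4-fold. These were 3 of 8 genes of the set called higher and 0 lower in that step, where 3.00% of all genes tested were called higher and 4.88% lower. In the step from 2 to 4 h with the drug no gene of the set was called higher or lower by edgeR or by DESeq2 (0.782% and 5.18% of all genes in edgeR). All 8 had an adjusted p below 0.05 in edgeR but did not reach 2-fold. The value of urg1 in that step was 0.98 ± 0.10, just short of 2-fold, and passed it without replicate 2 at 2 h with drug (1.05) or without replicate 1 or 3 at 4 h with drug (1.07 and 1.02). The acid phosphatase gene pho1, a marker of phosphate starvation, was called in none of the drug groups. Against 0 h it rose by 2.16 ± 0.08, 3.20 ± 0.09 and 4.17 ± 0.09 at 2, 4 and 8 h without drug, but had -0.15 ± 0.08, -0.01 ± 0.08 and -0.52 ± 0.08 with drug. Of the other phosphate-responsive genes, the phosphate transporter gene pho84 rose with drug at 2 and 4 h (1.06 ± 0.07 and 1.07 ± 0.07). At 8 h with drug it was above 0 h by less than 2-fold (0.53 ± 0.07). tgp1, a glycerophosphodiester transporter gene, rose with drug at all 3 times, with its highest value at 2 h (3.54 ± 0.07, then 2.43 ± 0.07 and 1.57 ± 0.07).

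In the order of genes of the RefSeq annotation (assembly ASM294v3, another build than the ASM294v2 named in the submitters' processing notes, so no coordinates are given), urg2, urg3 and urg1 follow each other on chromosome I. They are followed by toe1, uck2 and fur4, with a listed antisense RNA of toe1 between. uck2, a second uracil phosphoribosyltransferase gene, was high in the same groups as the urg genes. Its mean was 27.4 ± 1.33 CPM at 0 h (± SD of 3 libraries) and 551 ± 29.8, 479 ± 14.2 and 551 ± 31.2 CPM at the later times without drug. With drug it was 36.1 ± 1.90, 50.5 ± 0.549 and 326 ± 53.9 CPM, with log2 fold changes against 0 h of 0.40 ± 0.09, 0.88 ± 0.09 and 3.57 ± 0.09. All drug libraries were above those at 0 h, and the change reached 2-fold at 8 h.

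The gene between them, toe1, encodes a DNA-binding transcription factor of the fungal binuclear zinc cluster type. It rose without drug by 1.44 ± 0.07 at 2 h, 1.31 ± 0.07 at 4 h and 1.15 ± 0.07 at 8 h. Its values with drug were 0.96 ± 0.07 (not called), 1.16 ± 0.07 and 1.07 ± 0.07. At 2 h its drug libraries were all below those without drug, and the differences between drug and no drug at 2, 4 and 8 h were -0.48 ± 0.06, -0.15 ± 0.06 and -0.08 ± 0.06. The antisense RNA toe1-antisense-1 had a mean of 9.08 CPM at 0 h. Its means at 2, 4 and 8 h were 13.9, 15.1 and 28.3 CPM without drug and 4.35, 4.14 and 10.9 CPM with it. Reads of toe1 and toe1-antisense-1 may be shared, because no source used here tells whether counting used the strand. A related limit holds for urg3 and ura1, which each overlap 2 non-coding RNAs of the RefSeq annotation, and for urg1, fur4, ura3 and ura5, which each overlap 1. None of these RNAs has a row in the count table, so their reads may have been counted with these genes. Whether they lie on the same strand was not checked. On the other side of urg2, the carboxylic acid transporter gene SPAC1002.16c had a different order of levels, with 10.3 ± 0.779 CPM in replete cells, then 24.1 ± 1.74 at 2 h without drug against 138 ± 1.64 with it (mean ± SD, n = 3). Its libraries without drug were above those at 0 h at each time. They had 18.9 ± 0.419 CPM at 4 h and 19.5 ± 1.39 CPM at 8 h. SPAC1002.16c was higher with drug than without at each time, by 2.52 ± 0.05, 2.45 ± 0.05 and 1.48 ± 0.05. itt1, a ubiquitin ligase gene farther out on that side, was likewise called higher with drug than without at each time, for example by 1.35 ± 0.04 at 2 h and by 1.05 ± 0.03 at 8 h, and in none of the 3 comparisons of starved cells without drug with 0 h. Next to fur4 on its far side, the non-coding RNA SPNCRNA.178 had low levels, with a mean of 7.82 CPM at 0 h. Its means were 4.68, 1.68 and 4.66 CPM at 2, 4 and 8 h without drug and 8.52, 11.5 and 7.84 CPM with it. The libraries at 4 h without drug, with 48 to 55 counts, were all below those at 0 h and at 4 h with drug. SPAC1399.02, a transporter gene farther out, was called in none of the 9 comparisons with 0 h or between drug and no drug. Its values ran from -0.71 ± 0.05 to 0.47 ± 0.05.

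**Figure D2:**
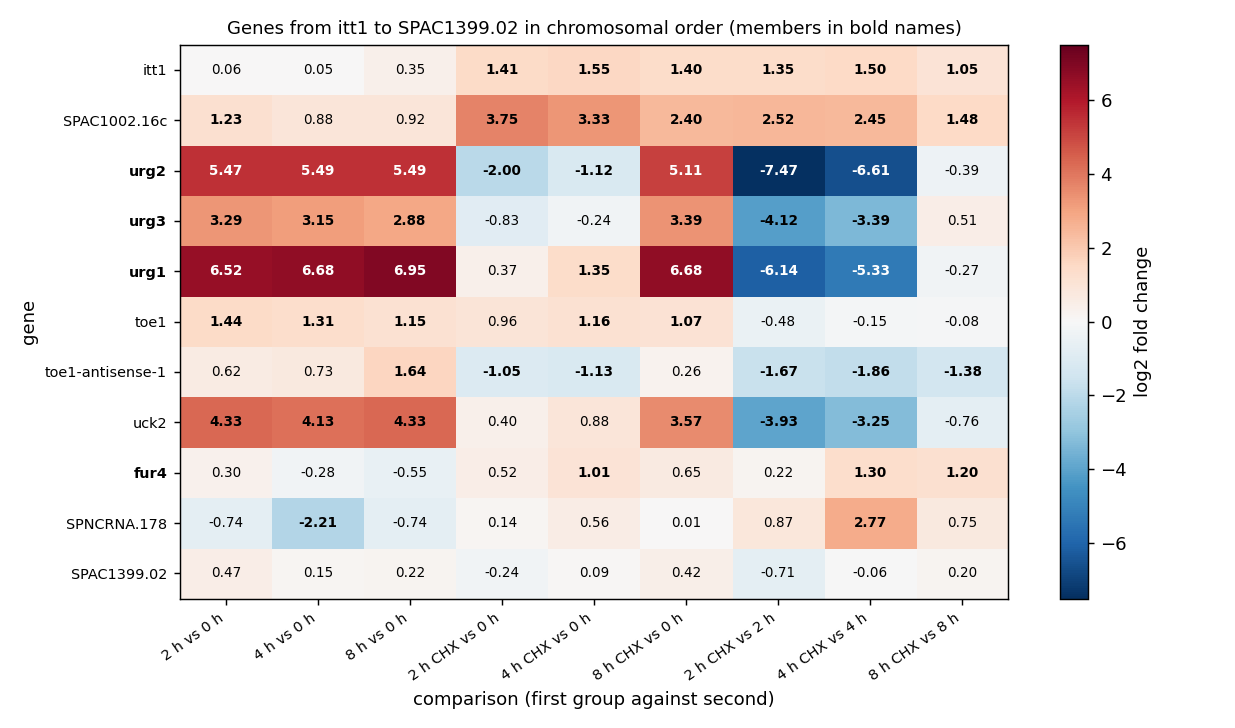
Log2 fold changes of 11 tested genes in their chromosomal order, for each starved group against 0 h and for drug against no drug at each time. Bold numbers passed an adjusted p below 0.05 and 2-fold. urg2, urg3, urg1 and uck2 are high in the 3 comparisons without drug and at 8 h with drug, and lower with than without drug at 2 and 4 h.

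The uracil permease gene fur4, at the end of this run of genes, had another order of levels and changed by less than 2-fold without drug. It had 179, 186 and 176 CPM at 0 h, 224, 220.4 and 219.8 CPM at 2 h, 153, 147 and 145 CPM at 4 h, and 123, 118 and 128 CPM at 8 h. None of the comparisons without drug against 0 h reached 2-fold (0.30 ± 0.05, -0.28 ± 0.05 and -0.55 ± 0.05), although the groups did not overlap. With drug the levels were 286, 244 and 244 CPM at 2 h, 365, 371 and 355 CPM at 4 h, and 288, 281 and 279 CPM at 8 h. Every drug library was above all libraries of 0 h and of the same time without drug. The difference between drug and no drug was 0.22 ± 0.05 at 2 h and was called at 4 h (1.30 ± 0.05) and 8 h (1.20 ± 0.05). Against 0 h fur4 rose at 4 h with drug by 1.01 ± 0.05, a call that was lost without replicate 3 at 0 h (0.996) or replicate 2 at 4 h with drug (0.997).

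Transcripts of 3 of the pyrimidine synthesis enzymes fell during starvation without drug, ura3 furthest. The first gene of the pathway, ura1, encodes the enzyme that joins carbamoyl-phosphate synthase and aspartate carbamoyltransferase. It had 1245, 1236 and 1267 CPM at 0 h, 708, 755 and 742 CPM at 2 h, 437, 438 and 442 CPM at 4 h, and 410.5, 380.2 and 383 CPM at 8 h. The groups stepped down without overlap. The log2 fold change against 0 h was -0.77 ± 0.04 at 2 h, short of 2-fold, and ura1 fell by 1.51 ± 0.05 at 4 h and by 1.68 ± 0.05 at 8 h.

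ura2, the gene of dihydroorotase, which closes the ring, was never called. Its levels at 0 h were 78.8, 85.2 and 85.8 CPM and at 8 h 57.0, 56.5 and 55.3 CPM, with a log2 fold change of -0.56 ± 0.05, and its 8 h libraries were all below those at 0 h. ura3 encodes the mitochondrial dihydroorotate dehydrogenase, which makes orotate. It had 807, 832 and 835 CPM at 0 h, 422, 453 and 472 CPM at 2 h, 112, 119 and 123 CPM at 4 h, and 121, 109 and 111 CPM at 8 h. The 4 h and 8 h libraries overlapped each other and lay far below the rest. The value of ura3 against 0 h was -0.88 ± 0.05 at 2 h, and the gene fell by 2.81 ± 0.06 at 4 h and by 2.86 ± 0.06 at 8 h (edgeR quasi-likelihood test, adjusted p = 5.5e-21 and 1.5e-21), a 7.26-fold lower level at 8 h.

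ura5, the orotate phosphoribosyltransferase gene, had 230.3, 233 and 229.9 CPM at 0 h and 139.6, 142 and 146 CPM at 2 h. It had 80.9, 78.2 and 78.4 CPM at 4 h and 95.5, 87.7 and 87.3 CPM at 8 h, so that its lowest libraries were those at 4 h. Its value at 2 h was -0.70 ± 0.04, and it fell by 1.55 ± 0.04 at 4 h and by 1.36 ± 0.04 at 8 h. At 4 h as at 8 h, the set thus held 3 of 8 genes higher (the urg genes) and 3 lower (ura1, ura3 and ura5). Of all genes tested, 14.2% were called higher and 13.9% lower at 4 h, and 19.0% and 15.6% at 8 h.

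Between 2 and 4 h ura3 fell by 1.93 ± 0.06 on the log2 scale, from 449 ± 25.3 to 118 ± 5.11 CPM (mean ± SD, n = 3). It was the 1 of 8 genes called lower in that step, with 0 higher, where 7.60% of all genes were called higher and 6.62% lower. From 4 to 8 h no gene of the set was called by edgeR or by DESeq2 in either direction (3.77% of all genes were higher and 2.78% lower in edgeR). In that step 6 genes had an adjusted p below 0.05 in edgeR but did not reach 2-fold.

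**Figure D3:**
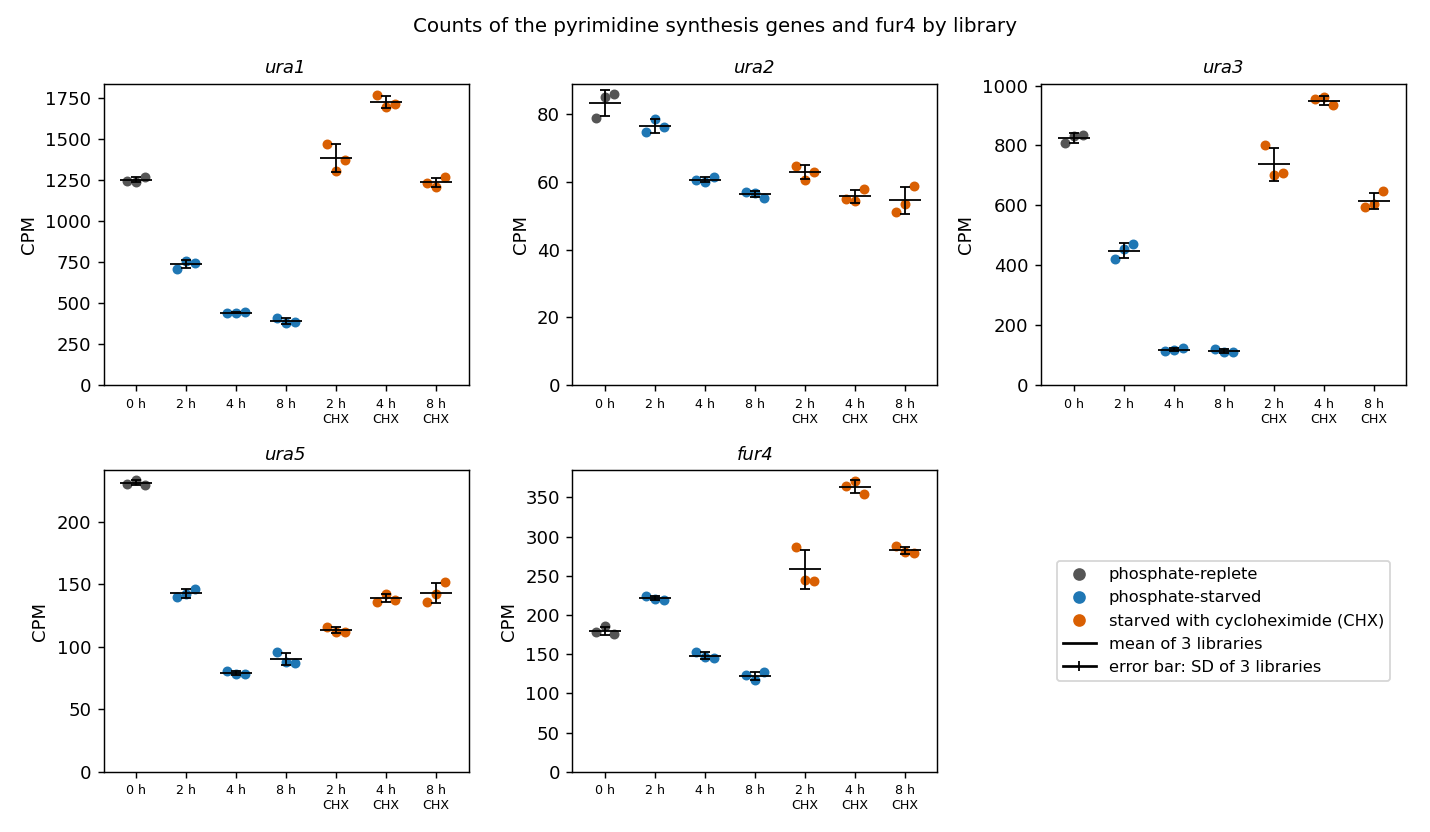
CPM of ura1, ura2, ura3, ura5 and fur4 in each library, with group means and SD (n = 3). Without drug ura1, ura3 and ura5 step down from 0 h to 4 h, while with cycloheximide ura1 and ura3 lie near or above their 0 h levels at 2 and 4 h.

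With cycloheximide ura1 and ura3 were not called lower or higher than at 0 h. The drug libraries of ura1 had 1469, 1303 and 1372 CPM at 2 h, 1765, 1693 and 1714 CPM at 4 h, and 1232, 1204 and 1264 CPM at 8 h. Those of ura3 had 801, 701 and 707 CPM at 2 h, 954, 961 and 934 CPM at 4 h, and 595, 605 and 646 CPM at 8 h. For both genes the highest drug group was that at 4 h, above all 0 h libraries. Against 0 h the values were 0.15 ± 0.04, 0.46 ± 0.04 and -0.02 ± 0.04 for ura1 and -0.16 ± 0.05, 0.20 ± 0.05 and -0.42 ± 0.05 for ura3, and the ura1 libraries at 8 h overlapped those at 0 h. This last ura1 value was 0.03 with RLE size factors or DESeq2, 0.04 in a fit of the compared groups and 0.21 with library size alone.

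For ura1 and ura3 the groups with and without drug drew apart from 2 to 4 h and were less far apart at 8 h than at 4 h. At 2 h ura1 was higher with drug by 0.91 ± 0.04 and ura3 by 0.71 ± 0.05, both short of 2-fold. At 4 h the differences were 1.97 ± 0.05 and 3.01 ± 0.06 (edgeR quasi-likelihood test, adjusted p = 1.3e-20 and 5.7e-22), and at 8 h 1.66 ± 0.05 and 2.44 ± 0.06. The drug effect on ura3 was larger at 8 h than at 2 h by 1.72 ± 0.08, a called difference, and that on ura1 by 0.75 ± 0.06, which was not.

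ura5 was lower than at 0 h with and without drug. Its drug libraries had 116, 112 and 112 CPM at 2 h, 136, 142 and 138 CPM at 4 h, and 136, 142 and 152 CPM at 8 h, all below the replete libraries. It fell against 0 h at 2 h with drug by 1.03 ± 0.04, a call that was lost with RLE size factors (-0.97), library size alone (-0.92), a fit of the compared groups (-0.98) or DESeq2 (-0.97). The values at 4 and 8 h were -0.74 ± 0.04 and -0.69 ± 0.04. Between drug and no drug it went from -0.33 ± 0.04 at 2 h to 0.81 ± 0.04 at 4 h and 0.67 ± 0.04 at 8 h, none called, and ura2 stayed within -0.28 ± 0.05 and -0.05 ± 0.05.

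Counts over the set are given beside the shares over all genes, to which those at 2 and 4 h with drug lie near. Against 0 h at 2 h with drug, 0 of 8 genes were higher and 2 lower (urg2 and ura5), where 17.0% and 14.5% of all genes were. At 4 h, 2 were higher (urg1 and fur4) and 1 lower (urg2), with 14.8% of all genes higher and 14.8% lower. At 8 h the 3 urg genes were higher and 0 lower, with 12.6% and 14.1% of all genes. Between drug and no drug, 0 were higher and 3 lower at 2 h (15.8% and 13.5% of all genes), 3 higher and 3 lower at 4 h (19.9% and 20.9%), and 3 higher and 0 lower at 8 h (17.1% and 20.8%). The genes higher with drug were fur4, ura1 and ura3 at both later times, and those lower were the urg genes. In the difference of the drug effects between 8 and 2 h, 5 of 8 genes were higher and 0 lower, where 12.6% of all genes were higher and 19.4% lower. The median log2 difference of drug and no drug over the 8 genes was -0.31 at 2 h, 0.34 at 4 h and 0.59 at 8 h, beside medians of -0.04, -0.04 and -0.03 over all genes tested.

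**Figure D4:**
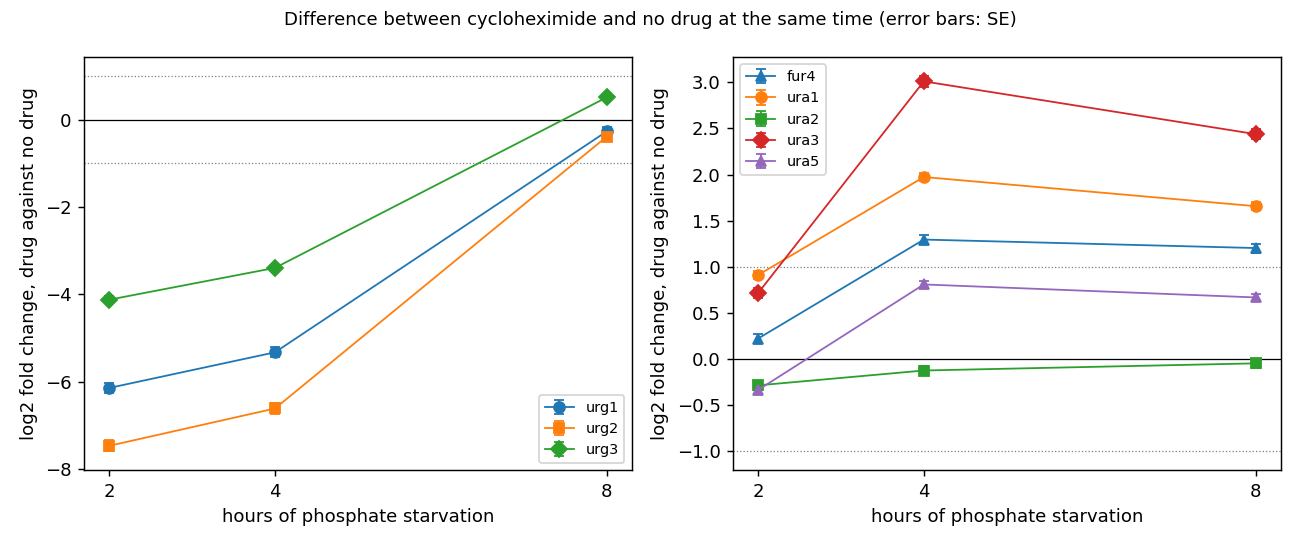
Log2 fold change between cycloheximide and no drug at 2, 4 and 8 h for the urg genes (left) and for fur4 and the ura genes (right), with SE as error bars and dotted lines at 2-fold. The urg genes go from -7.47 to -4.12 at 2 h to between -0.39 and 0.51 at 8 h, while ura3 reaches 3.01 and ura1 1.97 at 4 h.

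The product names of the authors' tables give 22 further genes with a pyrimidine term, and all 22 were tested. The list was drawn by words, so it also holds mpn1, cmb1, rib7 and hut1, whose products act outside this pathway. Against 0 h, 3 were higher and 0 lower at 2 h (3.94% and 1.81% of all genes), and 8 were higher and 2 lower at both 4 h (14.2% and 13.9%) and 8 h (19.0% and 15.6%). At both later times mpn1, cmb1 and rib7 were among the higher genes and hut1 was among the lower. The list had medians of 0.26, 0.44 and 0.61 beside -0.02, -0.00 and -0.01 over all genes tested. Those at 2 h were uck2 (4.33 ± 0.09), the uridine ribohydrolase gene urh1 (3.11 ± 0.10) and the cytidine deaminase gene cdd1 (2.01 ± 0.10), which act in salvage and breakdown. All 3 remained higher at 8 h, at 4.33 ± 0.09, 3.55 ± 0.10 and 3.05 ± 0.10. A pyrimidine 5'-nucleotidase gene, SPAC24B11.05, rose at 4 h (1.80 ± 0.10) and 8 h (2.62 ± 0.10). The CTP synthase gene cts1, which acts after UMP in synthesis, fell by 1.84 ± 0.05 at 4 h and by 1.45 ± 0.05 at 8 h.

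With drug against 0 h, 1 of the 22 was higher and 8 lower at 2 h (17.0% and 14.5% of all genes), 0 and 8 at 4 h (14.8% and 14.8%), and 4 and 6 at 8 h (12.6% and 14.1%). The 1 higher gene at 2 h was mpn1. The lower genes held hut1 and rib7 at 2 and 4 h, and hut1 and mpn1 at 8 h. The medians were -0.71, -0.73 and -0.18, beside -0.05, -0.07 and -0.06 over all genes tested. The higher genes at 8 h were uck2, urh1 (1.58 ± 0.10), cdd1 (1.63 ± 0.10) and the uridine kinase gene urk1 (1.09 ± 0.04). Thus uck2, urh1 and cdd1, and likewise urg2 and urg3, were called higher at 8 h with drug and not at 2 or 4 h, while urg1 was called at 4 h too. Of the lower genes, dut1, which encodes the enzyme that removes dUTP, fell at all 3 times, with -2.90 ± 0.07, -3.50 ± 0.07 and -3.91 ± 0.07. A cytosine deaminase gene, SPCC965.14c, had 32.8 ± 0.817 CPM in replete cells but 0.992 ± 0.200 CPM after 8 h with drug (mean ± SD, n = 3), a change of -5.02 ± 0.11. The uridylate kinase gene ura6, which phosphorylates UMP, fell by 1.81 ± 0.04 at 2 h and by 1.05 ± 0.04 at 4 h. Between drug and no drug, 0 were higher and 10 lower at 2 h (15.8% and 13.5% of all genes), 2 higher and 13 lower at 4 h (19.9% and 20.9%), and 2 higher and 11 lower at 8 h (17.1% and 20.8%). The lower ones held rib7 at 2, 4 and 8 h, and mpn1 and cmb1 at 4 and 8 h. The higher ones at both later times were cts1 (1.97 ± 0.05 and 1.26 ± 0.05) and urk1 (1.24 ± 0.04 and 1.37 ± 0.04).

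**Figure D5:**
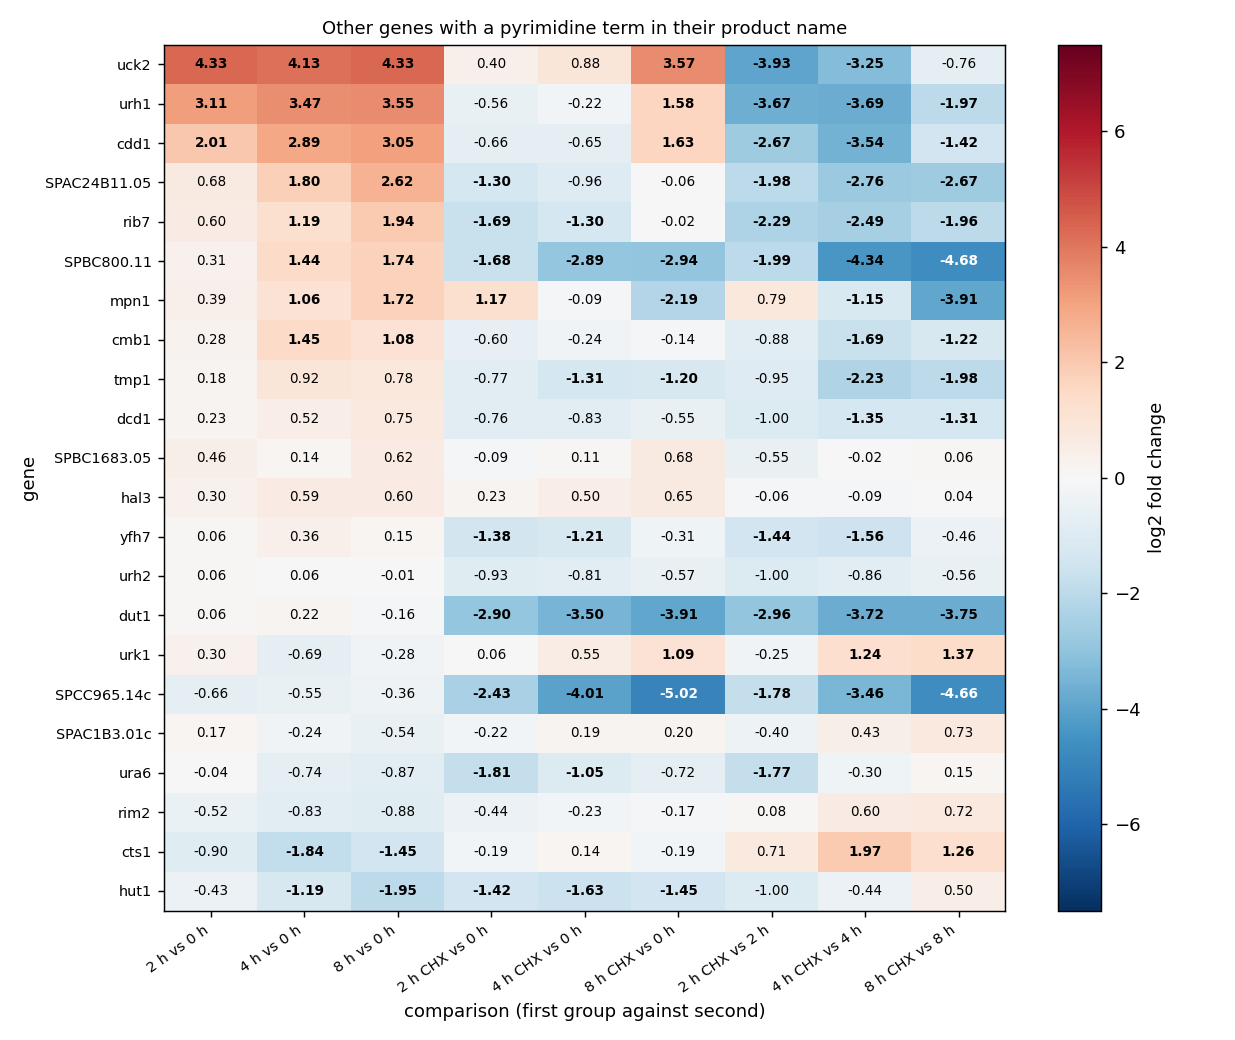
Log2 fold changes of 22 genes with a pyrimidine term in their product name, ordered by their value at 8 h against 0 h, with bold numbers for calls. uck2, urh1 and cdd1 are highest without drug and are the same 3 that, with urk1, are higher at 8 h with drug.

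The genes most like each member were ranked by Pearson's r of log2 CPM over the 21 libraries, which fall into 7 groups, so that r describes the shared order of groups. For urg1 the nearest was uck2 (r = 0.990), followed by urg3 (0.977) and urg2 (0.971). For urg2 it was urg3 (0.992), followed by the proline transporter gene put4 (0.979), whose drug groups had 21.7 ± 2.87, 17.4 ± 0.946 and then 118 ± 14.6 CPM (mean ± SD, n = 3). For ura1 the nearest were the RNA helicase gene has1 (0.998), its own neighbour kri1, a ribosome biogenesis gene (0.998), and puf6 (0.997). For ura3 they were the ubiquitin hydrolase gene ubp3 (0.997), the RNA helicase gene dbp3 (0.996) and the snoRNP protein gene nop58 (0.994). kri1 had log2 fold changes of -2.41 ± 0.06 at 4 h and 0.48 ± 0.05 at 4 h with drug, against -1.51 ± 0.05 and 0.46 ± 0.04 for ura1, and dbp3 had -2.64 ± 0.06 and 0.43 ± 0.05, against -2.81 ± 0.06 and 0.20 ± 0.05 for ura3. The neighbours on the other side of ura1 did not follow it. Means of ime4 and ppk8 were 21.6 and 25.8 CPM at 0 h and 48.3 and 77.7 CPM at 8 h without drug. With drug at 8 h they were 9.70 and 83.7 CPM. For ura5 the nearest was ilv6, of branched-chain amino acid synthesis (0.986), for fur4 lsb4 (0.977) and for ura2 trm5 (0.967).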

How the data were processed

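The authors deposited whole-number read counts per gene for 21 libraries, not normalized, and 6 tables against 0 h that hold, per the file headers, a log2 fold change and an adjusted p-value from DESeq2. HISAT2 2.1.0, SAMtools, HTSeq 0.10.0, DESeq and DESeq2 are named in the submitters' processing notes, with build ASM294v2. Neither their settings nor the strand of counting is given in the sources used here. Per the labels, libraries were made with a stranded kit. Symbols and products came from the authors' tables.

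The test was the quasi-likelihood test of edgeR 4.0.16, run on the deposited counts in R 4.3.3 (TMM scaling, default low-count filter, 1 fit of all 7 groups without a replicate block, 14 comparisons). The filter removed 596 of 6988 genes. P-values were adjusted by Benjamini-Hochberg over all genes tested, and a call needs an adjusted p below 0.05 and 2-fold. The SE is the log2 fold change divided by the square root of F. CPM use TMM-scaled library sizes and are not corrected for length, so levels are not compared between genes. log2 CPM used a prior count of 2. The test was also run on simulated counts, drawn with the trended spread of the same fit. That run does not show how the test behaves with the spread between these libraries. Counts of no replicate pair agreed within sampling noise (chi-square per gene 3.64 to 23.3). At 8 h without drug replicate 1 gave 23.3 against replicate 2 and 19.5 against 3, while 2 against 3 gave 3.64. At 2 h with drug replicate 1 gave 16.1 and 14.8, and 2 against 3 gave 6.22. The highest pairs at 4 and 8 h with drug had 15.5 and 15.0. Members and lists were chosen with earlier results of these data known. Named genes were all members, up to 4 called genes of the pyrimidine list per direction and comparison, neighbours (the nearest 2 tested genes on each side), the 3 genes most like each member, and pho1, pho84 and tgp1. Alternatives were RLE size factors, library size alone, 2 other filters, a replicate block, a fit of the compared groups, calls at any fold, DESeq2 1.42.0 and each library left out. A planned search of promoter motifs was not made because the genome at hand is of another build, and no sequence is shown.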

Additional observations from a re-analysis of the deposited data

Results flagged for a closer look

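The effect of cycloheximide differed between 2 h and 8 h of starvation by at least 2-fold for 5 of the 8 genes, in the test of the difference itself, where 12.6% of all genes were called higher and 19.4% lower. The other 3, fur4, ura1 and ura2, passed the adjusted p without reaching 2-fold (edgeR, adjusted p = 9.0e-12, 3.1e-10 and 0.0019). On the log2 scale the drug effect at 8 h minus that at 2 h was 7.08 for urg2, 5.87 for urg1, 4.63 for urg3, 1.72 for ura3 and 1.00 for ura5 (edgeR, adjusted p = 4.4e-20, 3.7e-19, 6.7e-20, 5.1e-15 and 2.0e-13). For the urg genes the difference between drug and no drug was -7.47 to -4.12 at 2 h and, at 8 h, -0.39 for urg2, -0.27 for urg1 and 0.51 for urg3, for ura3 a positive difference grew, and for ura5 the sign turned from -0.33 to 0.67. The ura5 value lies at the 2-fold limit and its call was lost with RLE size factors (0.99), the stricter filter (0.95), a fit of the compared groups (0.97) and DESeq2 (0.99). It was also lost without replicate 3 at 2 h, replicate 2 or 3 at 8 h, replicate 2 or 3 at 2 h with drug, or replicate 3 at 8 h with drug (0.96 to 0.99). The value of fur4, 0.98, passed 2-fold without replicate 3 at 8 h (1.01) or replicate 1 at 2 h with drug (1.06).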

How the results depend on the processing

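The count of genes called was the same in all 14 comparisons without the low-count filter, and no called value changed sign under any alternative. With RLE size factors, library size alone, a fit of the compared groups or DESeq2, 1 gene in place of 2 was called at 2 h with drug against 0 h (ura5 lost). Without the 2-fold rule, 8 genes were called at each of 2, 4 and 8 h without drug, and 8, 8 and 7 at those times with drug (against 0 h). For the drug at 2, 4 and 8 h the counts were 8, 8 and 7. They were 5 and 6 in the steps to 4 and 8 h, 8 and 6 in those steps with drug, and 8 for the difference of drug effects. Leaving out each library in turn gave 0 to 1 genes in the step from 2 to 4 h with drug (urg1, without replicate 2 at 2 h or replicate 1 or 3 at 4 h), 2 to 3 at 4 h with drug against 0 h (fur4), 4 to 6 for the difference of drug effects (ura5 and fur4), and the main count elsewhere. With the replicate number as a block, the member count was the same in all 14 comparisons, for example 3 at 8 h with drug against 0 h. The labels give no shared day or batch, so the numbers were not taken as pairs. Same-number libraries correlated by -0.29 to 0.37 over 63 pairs, with a median of 0.042 beside -0.019 for different-number pairs. Each library could be closest to any of 3 numbers, and 15 of the 21 were closest to their own. Whether a number marks a shared day or batch was not tested. Uncalled values changed sign 12 times, each from within 0.03 of 0 on the log2 scale. Library size alone moved the median of all genes to 0.20 at 4 h, 0.19 at 8 h and 0.18 at 8 h with drug. The authors' deposited tables gave log2 fold changes 0.02 to 0.06 above those here, with 47 of 48 signs the same. Each of the 8 genes tested had at least 534 counts in every library, and why ura4 had 0 was not tested.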
